A study of Brassica napus with 6 samples.

Results

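The genes described here were low in seedlings of oilseed rape (Brassica napus) and high, at similar levels, in flower buds and siliques. They were chosen by the normalized values of HZ62 itself. A gene had to have a seedling mean above 0, flower bud and silique means at least 4 times the seedling mean, and flower bud and silique means within 2-fold of each other. Of 80932 genes listed, 2341 met these ratios, and the 200 with the highest mean of flower bud and silique are the members. Because the tissue means chose them, their tissue differences are a description, and calls of the members for these contrasts, given further on, are no evidence about them. Position, gene span and the genes next to the members were not part of the choice.

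HZ62 is a hybrid whose parents belong to the same study and were not analysed here. All samples carried the genotype label WT, and day and night lasted 16 and 8 h, with 22 and 18 °C. RNA of 3 tissues was sequenced with a TruSeq RNA kit, in 2 libraries each: seedlings of 2 weeks, flower buds under 2 mm (spelled "flower bug" in the tissue label and "flower" in the sample titles) and siliques of 3 to 5 cm. Whether replicates were separate plants is not stated in the labels, and the spread behind any p-value may be technical.

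Oilseed rape is an allotetraploid that carries the A genome of turnip (Brassica rapa) and the C genome of cabbage (Brassica oleracea), so that many genes have a counterpart on the other subgenome. A small flower bud holds young sepals, petals, stamens and carpels, many of them still dividing. A silique is the fruit that develops from the carpels and encloses the seeds, whereas a seedling consists mainly of cotyledons, leaves, stem and root. Carpel tissue is thus part of both a bud and a silique. Which of these cell types carry the transcripts cannot be read from whole organs, where fewer cells of a type and less RNA per cell cannot be told apart.

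The identifiers begin with ZS11, and the files do not pair them with gene names. Matching the 95143 identifiers to a RefSeq table of named genes of the Da-Ae assembly gave 0 matches. The members are therefore given by identifier, and their function, their protein and promoter sequences and the tissue identity by marker genes were not analysed here. Positions (1-based) come from the annotation columns of the count table, whose genome build is not given in the sources used here. As used here, the count table ended within chromosome C3 after 65535 genes and held 136 members (68%). Shares of all genes tested on the deposited counts therefore leave out chromosomes C4 to C9 and the rest of C3. The other 64 members lay there and were tested on recovered reads only, and their chromosome is taken from the identifier.

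The libraries differed in depth and, in seedling, also from each other. Seedling replicate 1 held 24110359 reads and seedling replicate 2 held 3973408, while the other 4 libraries lay between 10359099 and 12614212. These totals are reads recovered from the normalized table. Between 81.0% and 89.7% of the genes with 1 to 20 reads had an even count. Counting error was therefore computed on read pairs, taken as reads divided by 2. On that scale the mean chi-square per gene between replicates, which is 1 under sampling alone, was 1.26 in flower bud, 1.204 in silique and 7.58 in seedling. In the 192 members with at least 20 seedling reads the seedling mean was 17.8, against 1.77 in flower bud and 1.55 in silique over all 200. The flower bud and silique libraries thus differed from their partners by little more than counting error, and the seedling libraries by far more. Results that rest on the seedling libraries are given below with each of them alone.

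The members were abundant in the reproductive organs. Their normalized values, in which the authors scaled reads to library size with TMM factors, had a median of 79.1 and 77.0 in flower bud replicates 1 and 2 and of 76.2 and 79.3 in silique replicates 1 and 2. In seedling the median was 15.9 in replicate 1 and 7.64 in replicate 2. In all 200 members the higher seedling library lay below the lowest of the 4 flower bud and silique libraries. The rule nearly fixes this order, and it was not counted over all genes, so nothing is read from it. Summed over members, the values made up between 2.16% and 2.22% of a flower bud or silique library, 0.442% of seedling replicate 1 and 0.190% of seedling replicate 2. These shares follow from the choice of members and show its scale.

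**Figure D1:**
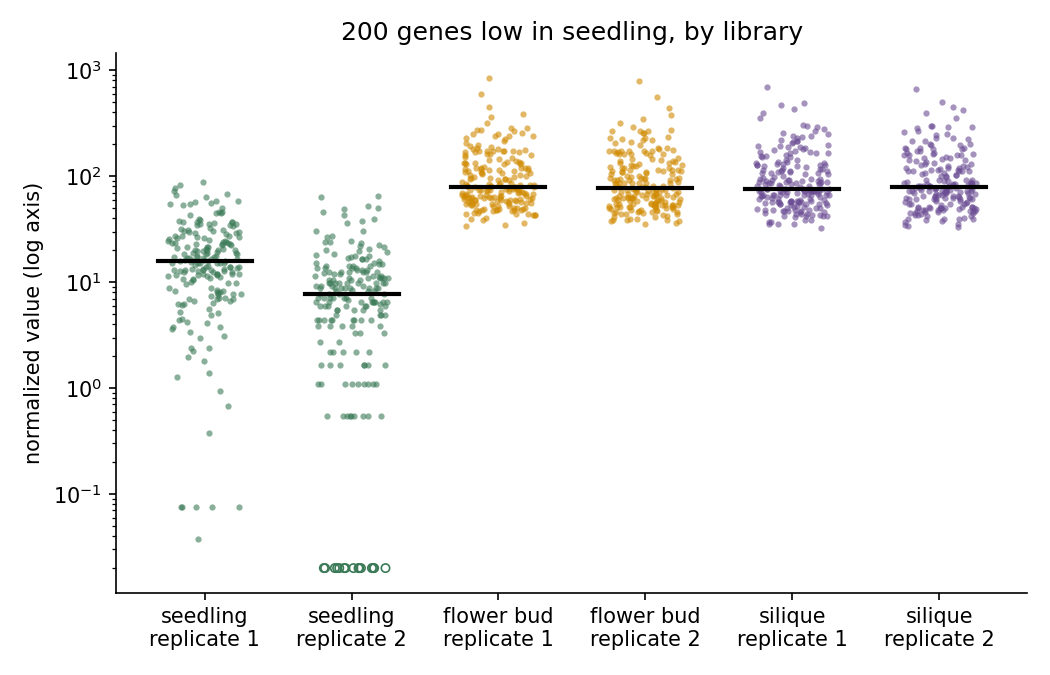
Normalized value (log axis) of each of the 200 members in each of the 6 libraries, with 1 point per gene and the median as a black bar. Open circles at the bottom are the 15 members with no read in seedling replicate 2. The flower bud and silique medians lie between 76.2 and 79.3, the seedling medians at 15.9 and 7.64.

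No single gene dominated the set. The level of a member, meaning the mean of its flower bud and silique means, ranged from 45.1 to 750.2 with a median of 78.1. It was at least 200 in 23 members, at least 100 in 73 and under 60 in 56. The 10 highest members took 17.7% of the summed level. Normalized values are not divided by gene length, so this order ranks reads and not transcripts.

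The highest member, ZS11C09G005900 on chromosome C9, had normalized values of 852 and 796 in the flower bud libraries, 687 and 666 in the silique libraries, and 72.4 and 11.5 in the seedling libraries. Its groups did not overlap, and flower bud stood above silique. ZS11A05G036100 (chromosome A5, 26074433 to 26075475, plus strand) had values of 599 and 558 in flower bud, 428 and 424 in silique, and 16.1 and 0.546 in seedling. Only 2 of its 430 seedling reads came from replicate 2. The third, ZS11C07G021880 on chromosome C7, showed the reverse order of the reproductive organs, with 454 and 437 in flower bud, 488 and 505 in silique, and 68.4 and 13.7 in seedling.

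ZS11C01G054610 (chromosome C1, 50385013 to 50386946, plus strand) leaned further to silique. Its normalized values were 470 and 453 in silique, 275 and 258 in flower bud, and 8.89 and 0.546 in seedling. On the same chromosome, ZS11C01G017840 (12240528 to 12243844, plus strand) had 388 and 375 in flower bud, 293 and 289 in silique, and 77.5 and 65.0 in seedling. It was the only one of these 5 genes whose seedling libraries lay close together, and its silique mean was just 4.09 times its seedling mean. None of the 3 of these genes with a position overlapped another gene model.

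Per kilobase of gene span the order changed. The span runs from the start to the end of the gene model with any introns, so the value understates the transcript level of genes with long introns. Among the 136 members with a span, the level per kilobase ranged from 3.82 to 779 with a median of 35.7. The highest was ZS11A07G019640 (chromosome A7, 17298774 to 17299013, minus strand), which was also the shortest member at 240 bp. Its normalized values were 169 and 163 in flower bud, 214 and 203 in silique, and 11.8 and 39.0 in seedling, so its seedling libraries lay apart in the direction opposite to most members. The longest member, ZS11A06G030580 (chromosome A6, 22223313 to 22254561, minus strand), spanned 31249 bp and had 139 and 132 in flower bud, 164 and 161 in silique, and 22.2 and 4.91 in seedling. Its level per kilobase was 4.77. Both genes were free of overlap with other gene models.

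Many members lay close to the fold limit of the rule. The lower of a member's 2 folds against seedling had a median of 5.16 and its quartiles were 4.39 and 9.70. It was between 4 and 5 in 96 members (48%) and between 5 and 6 in 19, while 63 members reached 8, 26 reached 20 and 8 reached 100. Just inside the limit stood ZS11C01G004010 at 4.01, with 182 and 183 in flower bud, 189 and 180 in silique, and 54.8 and 36.0 in seedling. Just outside stood ZS11C06G050090 at a fold of 3.9998, with a seedling mean of 19.7, a flower bud mean of 78.7 and a silique mean of 155. A further 376 genes of the same level had a lower fold between 3 and 4, so the fold limit cuts through a dense range of genes.

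At the limit on level, 56 members lay between 45.1 and 60. The last member by level, ZS11C03G038750 (chromosome C3, 24722498 to 24723357, minus strand), had a level of 45.1, from 39.5 in each flower bud library and 50.6 in each silique library, with 6.33 and 4.91 in seedling. The next gene, ZS11A03G010470, had a level of 44.9. At the limit between the reproductive organs, ZS11A09G001620 (chromosome A9, 1028820 to 1031941, minus strand) had a flower bud mean 1.998 times its silique mean, with 172 and 166 in flower bud, 87.9 and 81.6 in silique, and 6.93 and 1.64 in seedling. Just outside, ZS11A02G017270 had a silique mean 2.10 times its flower bud mean. Only 30 genes of the same level and folds lay between 2-fold and 3-fold apart in these organs.

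**Figure D2:**
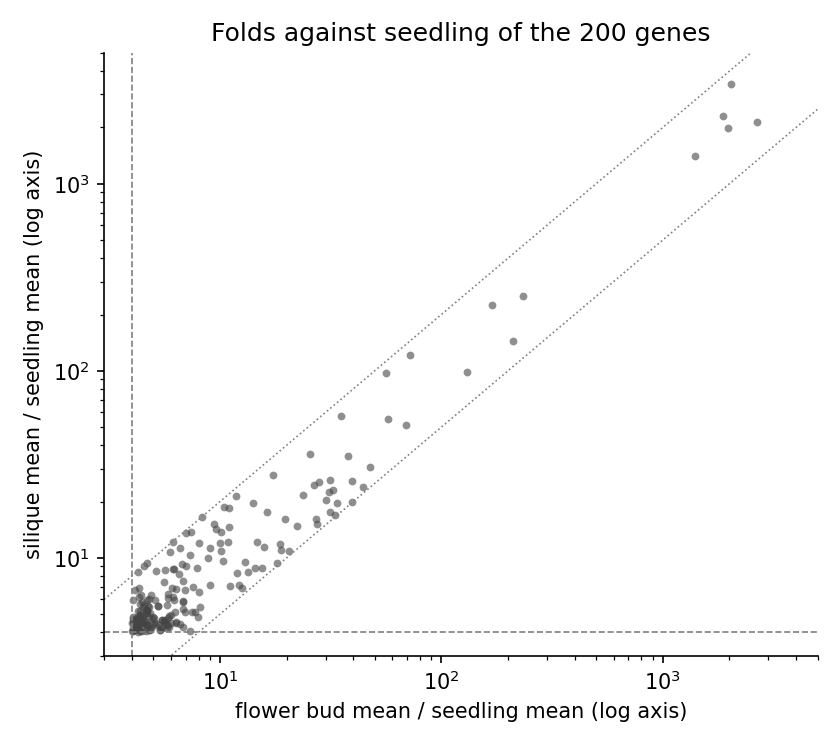
Fold of the flower bud mean (x axis) and of the silique mean (y axis) over the seedling mean for the 200 members, both on log axes. Dashed lines mark the limit of 4 and dotted lines the 2-fold band between flower bud and silique. The points crowd near the lower left corner, where 96 members have a lower fold under 5, and 8 members lie at 100 or above.

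The largest folds rested on very few seedling reads. The 8 members that reached a fold of 100 were those with under 20 reads in the seedling libraries together, and 15 members had no read in seedling replicate 2. Of the 8, 5 had just 2 seedling reads, all in replicate 1. Pooled over both libraries, their lower folds ranged from 797 to 1211, and the exact 95% Poisson intervals of those reads together spanned folds from 143 to 47818. Among members with at least 3 seedling reads, ZS11A08G017140 (chromosome A8, 14720039 to 14724801, minus strand) had the largest lower fold at 234, with values of 43.2 and 45.0 in flower bud, 47.8 and 46.9 in silique, and 0.377 and 0 in seedling. With its 10 seedling reads pooled over both libraries the lower fold was 133, and the interval of those reads allowed 57.1 to 411. ZS11C09G061650 on chromosome C9 had 59.2 and 55.1 in flower bud, 76.3 and 75.3 in silique, and 0.678 and 0 in seedling. Its pooled lower fold was 96.0 (50.5 to 210 from 18 reads). For ZS11A05G040440 (chromosome A5, 28722390 to 28725786, plus strand), with 62.2 and 60.2 in flower bud, 42.1 and 42.7 in silique, and 0.0377 and 0.546 in seedling, 3 reads gave a pooled lower fold of 427 with an interval from 99.8 to 5936. Because 1 other gene model overlaps it, its reads are uncertain. Such intervals were computed on read pairs and cover counting error alone, as no molecular identifiers that would mark independent molecules are described.

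Most members were lower in seedling replicate 2 than in replicate 1. The rule took the mean of both libraries, so a gene low in either is chosen more readily, and the difference between them is given as a description. Of the 200 members, 181 (90.5%) had a lower value in seedling replicate 2 than in replicate 1, and 99 (49.5%) had less than 0.5 times the value. Among the 185 members with reads in both, the median ratio of replicate 2 to replicate 1 was 0.530, or -0.92 on the log2 scale, with quartiles of -1.72 and -0.38. Over all 200 members the summed value was 4012 in replicate 1 and 2063 in replicate 2. The exact 95% Poisson intervals of the 2 libraries lay apart, with replicate 2 lower, in 106 members (53%), and with replicate 2 higher in 3 (1.5%). Among other genes of at least the members' level and in their seedling range, described below, these shares were 28.7% and 1.66%. Among all other genes of that level they were 23.5% and 17.5%. Over all 2341 genes that met the ratios, of which 1031 had reads in both libraries, they were 8.46% and 0.128%.

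The shift was smaller in other abundant genes. Among the 4958 genes that reached the level of the lowest member in flower bud and silique without being members, the median log2 ratio was -0.16 and 62.7% were lower in replicate 2. Some of these genes have far higher seedling values than the members. Restricted to the 2168 whose seedling mean lay between 1.25 and 42.0, the middle 90% of the members, the median was -0.35, 81.8% were lower in replicate 2 and 11.6% had less than 0.5 times the value. Over the 37563 genes of any level in that seedling range it was -0.10, with 56.7% lower. Over all 2341 genes that met the ratios, members included, 90.8% were lower in replicate 2. Their median was -0.84 in the 1031 with reads in both libraries. The shift was thus not particular to the members among genes chosen by these ratios. In the 163 members with at least 200 seedling reads the median was -0.92, the same as in all members with reads in both libraries. Genes are not independent replicates, and with 2 seedling libraries the difference between these sets was not tested. The part of depth or of seedling replicate 2 itself was not tested either.

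**Figure D3:**
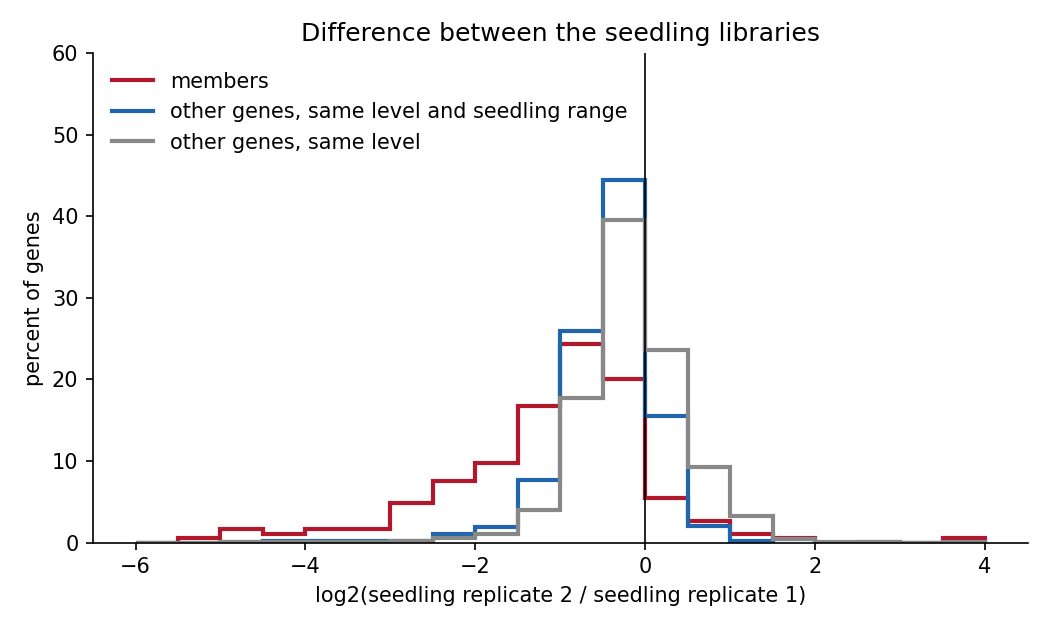
Distribution of log2(seedling replicate 2 / seedling replicate 1) in steps of 0.5, as percent of genes with reads in both libraries, for the members (red), for other genes of at least the same level with a seedling mean in the members' range (blue) and for all other genes of at least that level (grey). Of the sets drawn, the members lie furthest to the left, with a median of -0.92 against -0.35 and -0.16. All 2341 genes that met the ratios, with a median of -0.84, are not drawn.

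The gap was wider in members with a fold of 10 or more, a measure that contains the same seedling values. In the 115 members with a lower fold under 6 the summed seedling value of replicate 2 was 0.551 times that of replicate 1, and in the 36 with a fold from 6 to 10 it was 0.556 times. In the 23 members with a fold from 10 to 20 it was 0.208 times, and in the 26 with a fold of 20 or more 0.256 times. Among members with at least 20 seedling reads and a read in both libraries, ZS11A09G005210 (chromosome A9, 3025666 to 3027914, minus strand) had the widest gap, with 19.6 and 0.546 in seedling from 520 and 2 reads. Flower bud stood at 153 and 145 and silique at 129 and 114, and the gene overlaps 1 other gene model. ZS11A05G036100, described above as the second in level, followed with a ratio of 29.5. ZS11C06G003400 on chromosome C6 had 15.9 and 0.546 in seedling, from 422 and 2 reads, with 143 in each flower bud library and 227 and 230 in silique. In all 3 of these genes replicate 2 stood at the value of a single read pair.

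Membership therefore depended on the seedling libraries. Measured against seedling replicate 1 alone, 103 members still had both folds at 4 or more and 97 did not, and the median lower fold was 4.04. Against seedling replicate 2 alone, 197 members passed and 3 did not, and the median lower fold was 7.90 in the 185 with a read. When the whole rule was applied again without seedling replicate 2, 103 of the 200 members returned among the 200 highest. Without seedling replicate 1, 182 met the ratios again but only 75 were among the 200 highest, whose lowest level was then 95.3. Leaving out a flower bud or silique library returned between 189 and 192 members.

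The authors' scaling also bore on the choice. With it, the median gene of the 52918 tested stood 0.57 higher in flower bud and 0.36 higher in silique than in seedling on the log2 scale. The members' median difference was 2.59 in flower bud and 2.57 in silique, thus 2.02 and 2.21 above the median gene. With TMM factors computed here from the recovered reads, the median gene was shifted by only 0.15 and 0.07, and the members stood at 2.15 and 2.26, or 2.00 and 2.20 above it. Relative to the median gene the members thus moved little, but under those factors only 97 of them still met all the ratios of the rule.

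The median member differed little between the reproductive organs, as the rule required within 2-fold. The ratio of the flower bud mean to the silique mean had a median of 0.998. Flower bud was higher in 98 members and silique in 102, and 90 members were within 1.2-fold. By single libraries, both flower bud libraries stood above both silique libraries in 81 members, the reverse held in 79, and the libraries of the organs overlapped in 40. The same order of libraries was not counted over all genes, so nothing is read from these numbers about the members. A difference of more than 1.5-fold was present in 47 members.

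Count tests across all genes gave the following calls for the members. A gene was called when edgeR gave a Benjamini-Hochberg adjusted p under 0.05 and the groups differed at least 2-fold. On the deposited counts, all 136 members tested were called higher in flower bud than in seedling, where 21.1% of all genes tested were called, and 134 were called higher in silique, where 16.2% were. The same 134 were called in both comparisons, against 9.14% of all genes. On reads recovered from the normalized table, which cover all chromosomes, the counts were 200 of 200 in flower bud (20.6% of all genes), 198 of 200 in silique (15.9%) and 198 in both (8.89%). The rule used these contrasts, and both share the seedling libraries, so nothing further is read from these counts. The 2 members without a call in silique, named after their values were seen, were ZS11A03G002620 with 45.9 and 3.82 in seedling and ZS11C03G003170 with 16.6 and 0. Their silique values were 111 and 107, and 42.4 and 42.8.

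Between silique and flower bud, 4 of the 136 members were called on the deposited counts, where 27.4% of all genes were called, and 4 of 200 on the recovered reads, where 26.6% were. The 2-fold limit of the rule removes genes with such a difference. All 4 were higher in silique, and none (0) was called higher in flower bud, although edgeR on the deposited counts gave 25 members higher in silique and 9 higher in flower bud at an unadjusted p under 0.05. Without the 2-fold limit on the difference, 18 were higher in silique and 8 in flower bud at an adjusted p under 0.05 in edgeR. Of all genes tested, 37.6% passed that threshold in either direction. The 4 lay just inside the rule under the authors' scaling and just past 2-fold under edgeR's factors. Named after their values were seen, they were ZS11C01G040140 with 94.7 and 96.0 in flower bud against 199 and 181 in silique, ZS11A07G040590 with 43.3 and 43.9 and then 84.4 and 78.0, ZS11C03G012090 with 36.3 and 38.2 and then 71.7 and 72.3, and ZS11A01G013940 with 34.4 and 38.1 and then 72.0 and 72.7. Seedling values of these genes lay between 4.37 and 13.1, and in ZS11C01G040140 replicate 2 was the higher seedling library. ZS11A07G040590 and ZS11A01G013940 each overlap 1 other gene model. Limma on the normalized values, where the rule fixes the ratio under 2, called 0 members. At an unadjusted p under 0.05 limma gave 18 members higher in silique and 16 higher in flower bud, and DESeq2 called 5 members different. The counts at an unadjusted p and the DESeq2 count were not set beside all genes, so nothing is read from them.

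The members were spread over all 19 chromosomes and both subgenomes. Of the 200, 101 lay on A chromosomes and 99 on C chromosomes, so A held 50.5% (Wilson 95% interval 43.6 to 57.4, for counting error only). Leaving out genes with no chromosome, A chromosomes held 44.7% of the genes listed, 47.3% of the other genes of at least the same level and 49.0% of the genes that met the ratios. Members were chosen by rank and are no random sample, so the interval does not test a difference between these shares. The genes that met the ratios also include the members. Per chromosome the number ranged from 4 on A4 to 14 on A7 and C2.

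**Figure D4:**
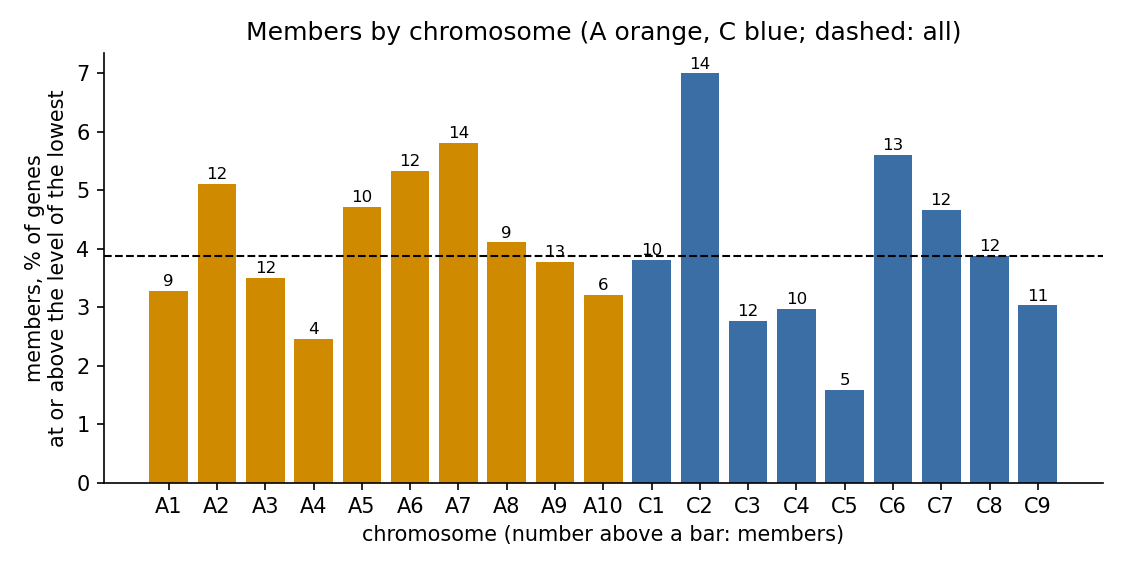
Members as a percentage of the genes on each chromosome that reach the level of the lowest member in flower bud and silique, with the number of members above each bar. A chromosomes are orange and C chromosomes blue. The dashed line marks the 3.88% over all chromosomes, and bars range from 1.58% on C5 to 7.0% on C2.

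Relative to the genes of at least the same level on a chromosome, members were most frequent on C2 with 14 of 200 such genes (7.0%), on A7 with 14 of 241 (5.81%) and on C6 with 13 of 232 (5.6%). They were least frequent on C5 with 5 of 316 (1.58%), A4 with 4 of 163 (2.45%) and C3 with 12 of 434 (2.76%), against 3.88% over all chromosomes. The counts per chromosome are small, and these differences were not tested. In the order of gene numbers, 3 pairs of members had at most 10 gene numbers between them, on C1, C6 and A6, and no larger group existed. Such pairs were not counted for other genes, so the number says nothing particular about the members.

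The closest pair was ZS11C01G004010 (chromosome C1, 2302854 to 2315605) and ZS11C01G004060 (2329390 to 2330207), both on the minus strand with 4 gene numbers between them. The first is the member nearest the fold limit and overlaps 1 other gene model. The second had 43.7 and 38.9 in flower bud, 62.9 and 49.9 in silique, and 7.12 and 1.09 in seedling. Their values thus differed in level and in how far the seedling libraries lay apart.

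Members had shorter gene models than other genes of their level. The median span of the 136 members in the count table was 2517 bp, with quartiles of 1609 and 4010 bp. Among 3157 other genes of at least the same level it was 3452 bp, and it was 2286 bp among all 51324 genes listed in both tables. A span of at least 5000 bp occurred in 26 members (19.1%) against 32.9% of the other genes of that level, and one under 1000 bp in 11 members (8.09%) against 3.67%. Per kilobase of span the median flower bud mean was 33.5 in members and 20.6 in those other genes, and the median silique mean 33.2 and 21.3, whereas the median seedling mean was 3.84 and 12.2. The level that chose the members is not divided by length. A cut on level was applied to both sets, and the difference in span was not tested.

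Strand and spacing were close to those of other genes. The plus strand held 63 members (46.3%) and 48.5% of the other genes of that level. Overlap with another gene model was found in 25 members (18.4%) and in 19.5% of those genes, and reads of such members are uncertain because whether counting used strand was not stated. The median distance to the nearest gene model that does not overlap was 754 bp for members and 739 bp for other genes of that level.

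Genes next to the members, which the rule did not use, were more often called higher in both reproductive organs than all genes tested. The excess was seen only in the part of the genome that the count table covers, a division that was not tested. The nearest tested gene on each side that is not a member was taken, 271 genes on the deposited counts. Of these, 39 (14.4%) were called higher than seedling in both organs, against 9.14% of all genes tested. Their median log2 fold change was 0.38 in flower bud and 0.26 in silique, against 0.12 and 0.02 over all genes. On the recovered reads of all chromosomes, 48 of 399 flanking genes (12.0%) were called against 8.89%. Of those 48, 40 lay among the 271 flanking genes that the count table covers (14.8%), so no excess was seen in the rest. The border is only where the count table ends. Few called genes lay beyond it, and the parts were not tested against each other. Over all chromosomes the median log2 fold change of flanking genes was 0.23 in flower bud and 0.16 in silique, against 0.11 and 0.02. Flanking genes lower than seedling in both organs were 29 (10.7%) on the deposited counts, against 13.4% of all genes. On the recovered reads they were 46 (11.5%), against 13.2%. The share of flanking genes that met the ratios of the rule itself was 3.51% against 3.59% of all genes on the recovered reads, and 4.43% against 3.71% on the deposited counts, where all genes include the members. Calls between silique and flower bud were made in 28.0% of the flanking genes and in 27.4% of all genes.

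Few flanking genes overlapped their member. On the deposited counts 15 of them overlapped their member, of which 3 were called higher in both organs, and 36 of the other 256 (14.1%) were called. Split by strand, 12 of the 123 on the same strand as a member (9.76%) and 24 of the 133 on the other strand (18.0%) were called. That split was made after the data were examined and was not tested. For most members neither neighbour followed: on the recovered reads 158 members had no flanking gene called higher in both organs, 36 had 1 and 6 had 2. Without seedling replicate 1 the flanking share was 18.5% and that of all genes 13.8%, and without seedling replicate 2 they were 11.4% and 7.91%. No test of the difference between flanking genes and all genes was made.

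**Figure D5:**
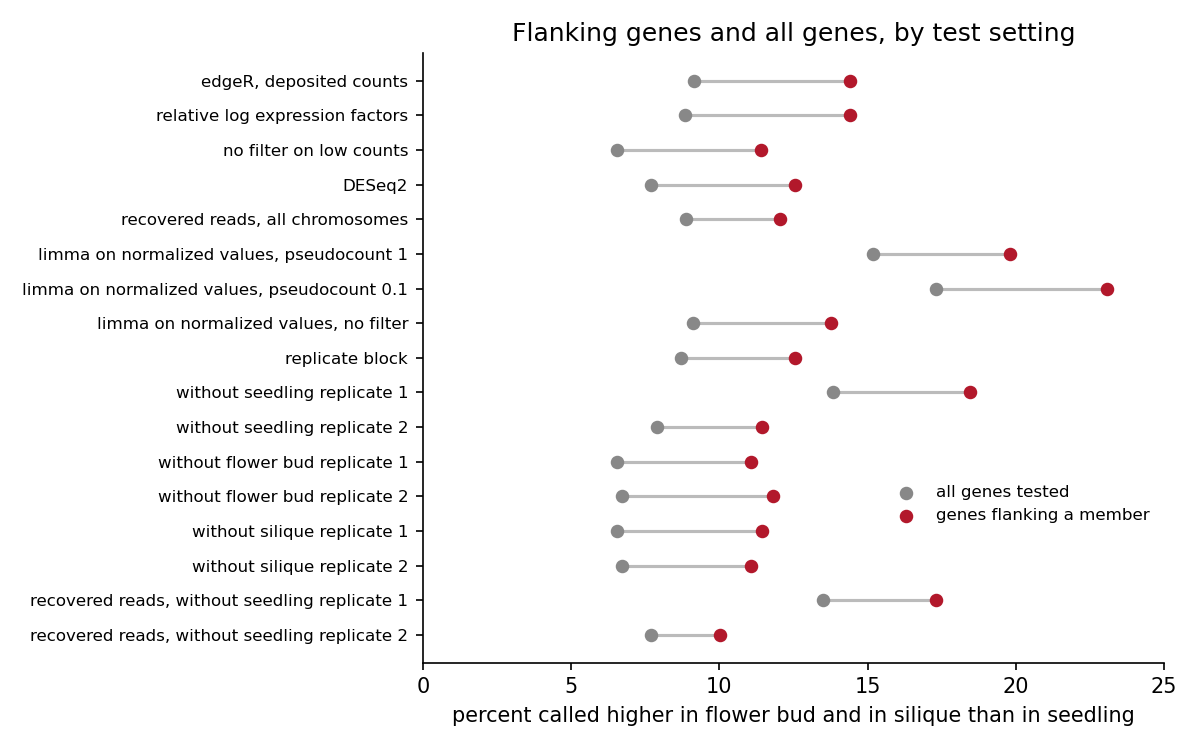
Percentage of genes called higher than in seedling in both flower bud and silique, for the genes flanking a member (red) and for all genes tested (grey), in the main edgeR test on the deposited counts and under 16 other settings. The rows reuse the same libraries and largely the same genes, so they are not independent. Each includes the part of the genome that the count table covers, where the excess was seen. The flanking share lies above that of all genes in each of the 17 rows, from 10.03% against 7.71% to 23.1% against 17.3%.

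The same ratios turned around gave smaller sets of less abundant genes. Genes low only in flower bud numbered 794 and genes low only in silique 470, against 2341 low only in seedling. The 200 highest of each reached a median level of 27.9 and 6.25, where the members stood at 78.1. These numbers were counted under the authors' scaling, with which the median gene was lower in seedling, and were not tested. With TMM factors computed here, 1392 genes were low only in seedling, and the other sets were not recounted. The replicates of the low tissue differed by a median absolute log2 of 0.33 in the flower bud set, 0.67 in the silique set and 0.94 in the members. The signed median log2 ratio of replicate 2 to replicate 1 was -0.01 in flower bud for the genes low there and -0.12 in silique for the genes low there, against -0.92 in seedling for the members. In those sets 54.0% of genes each were lower in replicate 2, against 90.5% of the members.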

How the data were processed

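The authors deposited a table of read counts per gene in featureCounts layout, per the file headers, and a table of a normalized signal per gene, TMM-scaled as the deposited table's name says. Per the submitters' processing notes, the tools included featureCounts, edgeR, HISAT2, SAMtools and GATK; their roles and settings were not given in the sources used here. Values of the normalized table were whole multiples of 1 step per library (100% within 0.05 reads), so reads were recovered from it, and 100% of the 51324 genes in both tables gave the same count. Deposited counts of 65535 genes gave 34296 tested genes after filterByExpr (minimum count 10) and the recovered reads 52918. All 6 libraries entered 1 fit with edgeR 4.0.16 in R 4.3.3 (TMM factors, quasi-likelihood F test, Benjamini-Hochberg adjustment over all genes tested), without a replicate block. DESeq2 1.42.0 and limma 3.58.1 (trend, log2 of the value plus 1 or 0.1) were alternatives. The fit was tested on simulated counts with the same spread in all libraries, so the wider spread of the seedling libraries was not simulated. Python 3.11.15, pandas 2.3.3, NumPy 2.4.6 and SciPy 1.17.1 were used for summaries.

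The members and the named-gene rule were chosen with earlier results of these data known. Members were named by level (ranks 1 to 5), at the limits of the rule, by the largest folds and seedling gaps, by the closest pair, and by the longest, the shortest and the highest per kilobase. Gene lists by function could not be applied, as identifiers had no names.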

Additional observations from a re-analysis of the deposited data

How the results depend on the processing

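Calls of members against seedling were fixed by the rule and say nothing about stability. Without each library in turn, they ranged from 129 to 136 of 136 in flower bud and from 128 to 136 in silique on the deposited counts. Members called different between silique and flower bud rose from 4 to 7 with relative log expression factors and to 7 with the replicate block, were 0 in each of the 3 limma fits (with a pseudocount of 1, 18 were higher in silique and 16 in flower bud at an unadjusted p under 0.05), and ranged from 3 to 7 without each library. Deviations of the replicates correlated between -0.03 and 0.004 across tissues. Flower bud and silique replicates differed by little more than counting error, so these correlations cannot show whether the replicate numbers pair the libraries. With the block, 136 members and 34 flanking genes (12.5%) were called higher in both organs, against 8.70% of all genes tested. Flanking genes called numbered 79 of 399 (19.8%) in limma with a pseudocount of 1, against 15.2% of all genes. With a pseudocount of 0.1 they numbered 92 (23.1%), against 17.3%. Without each library, the lowest number was 30 of 271, on the deposited counts. The highest was 69, of a different total of 399, on the recovered reads, where only seedling libraries were left out. The cause was not tested.

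Of the 200 members, 97 returned among the 200 highest with TMM factors computed here, 67 with a fold of 3 and 85 with a fold of 6. From the replicate 1 libraries 104 returned, from the replicate 2 libraries 74, and without each library 75 to 192. With a fold of 3 all 200 still met the ratios, and from the replicate 2 libraries 177 did. There the lowest level of the 200 highest rose to 106.6 and 93.3, so most of these members were lost by rank. The A share stayed between 46.0% and 55.0%. The median log2 ratio of the seedling libraries was -1.17 without scaling factors and -1.0 with TMM factors computed here. The folds of named members moved with the seedling libraries: flower bud over seedling in ZS11A05G036100 was 5.34 on the log2 scale in edgeR, 9.59 without seedling replicate 1 and 4.71 without seedling replicate 2. For silique over seedling in ZS11A09G005210, the log2 fold was 2.93, and it lost its call in DESeq2 (3.25) and without silique replicate 1 (2.91). Depth limits single genes in seedling replicate 2, where 45 members had under 10 reads.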
